A study of Mus musculus with 6 samples.

Results

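Cluster 1 and cluster 2 of CD11b+ bone marrow cells were compared within each of 6 single-cell RNA libraries. The submitters drew both clusters from the integrated expression data, and their cells were chosen by the cluster column of the deposited metadata table at a resolution of 0.1. Cluster 1 held 15824 cells and cluster 2 held 9629 cells, together 25453 of the 69776 cells kept by the submitters. They are called neutrophils here after the submitters' reference labels and the markers given below, whereas the study described them by genes of polymorphonuclear and monocytic suppressor cells of myeloid origin. Marrow was flushed from the femur or the mandible of C57Bl/6 mice aged 2 months and CD11b+ cells were taken with magnetic beads, and the labels name no transgene and no treatment. There were 3 femur libraries, of which replicate 1 came from female and replicates 2 and 3 from male mice, and 3 mandible libraries, all from male mice. The labels do not say how many mice gave a library, so the spread between libraries may be partly technical. They also name femurs and tibiae where the methods name femurs alone.

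Neutrophils mature in the marrow in an ordered series of steps. Primary granule proteins such as elastase and myeloperoxidase are made by dividing precursors, secondary granule proteins such as lactotransferrin and cathelicidin at the myelocyte and metamyelocyte stages, and tertiary granule proteins such as the gelatinases in band cells. Mature cells carry the chemokine receptor CXCR2 and the G-CSF receptor, hold mRNA of inflammatory cytokines, and leave the marrow for the blood.

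The gene difference between clusters that were drawn on gene expression is a description and not a test. The levels, the fold changes and the counts of called genes below therefore say how the clusters differed and how evenly this held across libraries. The site of the marrow was not itself used to draw the clusters, but they were drawn after integration across libraries, each of 1 site. Cells were thus assigned after differences between libraries had been adjusted. The test of whether the difference changed with the site is given at the end and takes these clusters as given. Levels are UMIs of a gene per 1000000 UMIs (CPM) of the summed cells of a library and cluster, scaled with edgeR's TMM factors. Summed levels of marker lists and of haemoglobin, and levels in clusters other than 1 and 2, are CPM without these factors. A fold change is log2 of cluster 1 over cluster 2 with its standard error, with libraries as blocks. Values after ± are otherwise the SD over 6 libraries, and values per library are given in the order of femur replicates 1, 2 and 3 and mandible replicates 1, 2 and 3.

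The libraries held between 82962160 and 244946998 UMIs, and every library gave cells to both clusters. Cells of cluster 1 numbered between 1298 and 5801 per library, and cells of cluster 2 between 972 and 2971. Per cell of cluster 2 there were 1.90, 1.55 and 1.95 cells of cluster 1 in the femur and 1.48, 1.34 and 1.17 in the mandible. The median cell of cluster 1 held 3827 to 6153.5 UMIs and that of cluster 2 held 5088 to 7106.5, and the median of cluster 1 was the lower in all 6 libraries, at 0.752 to 0.866 of that of cluster 2. Reference labels of the submitters called 15819 of 15824 cells of cluster 1 and all 9629 of cluster 2 neutrophils with the ImmGen set. With the MouseRNA set, 69.1% to 80.7% of cluster 1 and 90.2% to 95.4% of cluster 2 were granulocytes, and 3982 cells of cluster 1 and 705 of cluster 2 were called monocytes. The summed level of 12 monocyte and macrophage markers was 523 to 778 CPM in cluster 1 and 646 to 942 CPM in cluster 2, against 7396 to 11661 CPM in the monocyte cluster 5. Of these 12 markers, 5 were called higher in cluster 1 and 1, Ly6c2, higher in cluster 2, with a median log2 difference of 0.29. Among kept cells, 500 barcodes occurred in more than 1 library, and 330 cells of the compared clusters carried such a barcode.

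Markers of dividing precursors were low in both clusters. Elane, neutrophil elastase, was at 5.62 ± 2.52 CPM in cluster 1 and 6.31 ± 3.10 CPM in cluster 2, and Mpo, myeloperoxidase, was at 3.29 and 3.21 CPM. In cluster 4, the cells with the most Camp, their mean unscaled levels were 1058 and 290 CPM. In clusters 0 and 3 Elane was at 4.85 and 4.83 CPM and Mpo at 2.94 and 2.29 CPM, also unscaled. Low levels of these genes were thus not particular to clusters 1 and 2 and do not show that their cells were mature. The summed level of 10 proliferation genes was 34.7 to 66.7 CPM in cluster 1 and 23.1 to 42.4 CPM in cluster 2, against 1737 to 3073 CPM in the B cell cluster 6. Cluster 3 had 18.3 to 38.5 CPM and cluster 0 had 83.9 to 251 CPM. At a resolution of 0.05 clusters 1 and 2 lay in 1 larger cluster. At 0.075, cluster 2 stood alone with 9571 of its cells, while 99.7% of cluster 1 joined cluster 3.

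Of the gene lists compared, the stefins had the lowest median and were higher in cluster 2. Stefins are small cytosolic inhibitors of cathepsins and related cysteine proteases, and the mouse has a tandem cluster of stefin A genes on chromosome 16. The promoters of the 6 members with a measured level above a few CPM are shown because these genes lie side by side and differed together. Each is the stretch of 120 bases before the RefSeq start in GRCm38.p6, on the strand of the gene, and capitals mark a word of 12 bases that the 6 sequences share.
Cstdc4: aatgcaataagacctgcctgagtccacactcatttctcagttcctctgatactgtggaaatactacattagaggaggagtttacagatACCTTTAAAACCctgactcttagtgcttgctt
Stfa2l1: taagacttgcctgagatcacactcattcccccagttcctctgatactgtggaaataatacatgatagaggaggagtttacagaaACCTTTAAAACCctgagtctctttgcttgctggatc
Stfa1: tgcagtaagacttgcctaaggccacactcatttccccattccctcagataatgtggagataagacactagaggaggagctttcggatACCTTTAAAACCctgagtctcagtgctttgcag
Cstdc5: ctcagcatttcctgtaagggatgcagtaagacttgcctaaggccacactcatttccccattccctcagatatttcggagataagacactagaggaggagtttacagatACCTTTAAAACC
Stfa2: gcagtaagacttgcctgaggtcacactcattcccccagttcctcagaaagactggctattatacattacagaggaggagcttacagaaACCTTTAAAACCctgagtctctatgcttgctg
Stfa3: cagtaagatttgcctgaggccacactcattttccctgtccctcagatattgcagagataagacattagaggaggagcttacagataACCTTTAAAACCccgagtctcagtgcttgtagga

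The sequences lie at chr16:36184092-36184211, chr16:36156691-36156810 and chr16:36277028-36277147 on the plus strand and at chr16:36367571-36367690, chr16:36408364-36408483 and chr16:36455393-36455512 on the minus strand, in the order printed. The shared word began 32, 36, 33, 12, 32 and 34 bases before the start. It was found after the sequences were seen, and it occurred on either strand in the 250 bases before 11 of 27025 genes with a promoter, 9 of them between the outermost stefin promoters. That these promoters are near copies of each other is a description of the locus and says nothing of what binds there. Transcripts of near-identical copies can share reads, so the split of counts among the stefin A genes is uncertain.

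Cstdc4 (ENSMUSG00000079597, chr16:36184212-36188111, plus strand), a stefin A gene, had the largest difference of the genes named here. Its levels were 106, 170, 314, 164, 179 and 197 CPM in cluster 1 and 2022, 3009, 3305, 2780, 2713 and 2941 CPM in cluster 2. The highest library of cluster 1 lay far below the lowest of cluster 2, and the difference was -3.94 ± 0.09 on the log2 scale, 15.4-fold. Stfa2l1 (ENSMUSG00000059657, chr16:36156811-36161953, plus strand) was at 243, 272, 538, 203, 327 and 280 CPM in cluster 1 and at 2302, 2430, 3346, 2069, 2444 and 1872 CPM in cluster 2. These groups also did not overlap, and the difference was -3.01 ± 0.08. Femur replicate 3 was the highest library of both genes in each cluster.

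Of 13 stefins and cystatins listed, 9 were tested, 7 were called higher in cluster 2 and 2 were called higher in cluster 1, with a median log2 difference of -2.22 against 0.01 over all genes tested. Across all genes, 43.3% were called at an FDR of 0.05, 21.8% higher in cluster 2 and 21.4% higher in cluster 1. The counts of the lists below are to be read beside these shares. All 7 stefin A genes differed over 2-fold and did not overlap between the clusters over the 6 libraries, where 0.94% of all genes were over 2-fold higher in cluster 2 and 2.69% of all genes did not overlap. Stfa1 was at 107 ± 34 CPM in cluster 1 and 365 ± 106 CPM in cluster 2. Cstdc5 was at 42.3 ± 20.7 and 182 ± 62 CPM, Stfa3 at 17.3 ± 9.0 and 90.9 ± 24.8 CPM, Stfa2 at 20.9 ± 10.5 and 86.3 ± 29.4 CPM, and Cstdc6 at 0.704 ± 0.415 and 3.13 ± 0.86 CPM. The relatives outside the tandem cluster differed little and the other way. Cstb, stefin B, was at 76.8 ± 12.5 and 70.2 ± 13.5 CPM, and Cst3, the secreted cystatin C, was at 488 ± 119 and 392 ± 79 CPM.

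**Figure D1:**
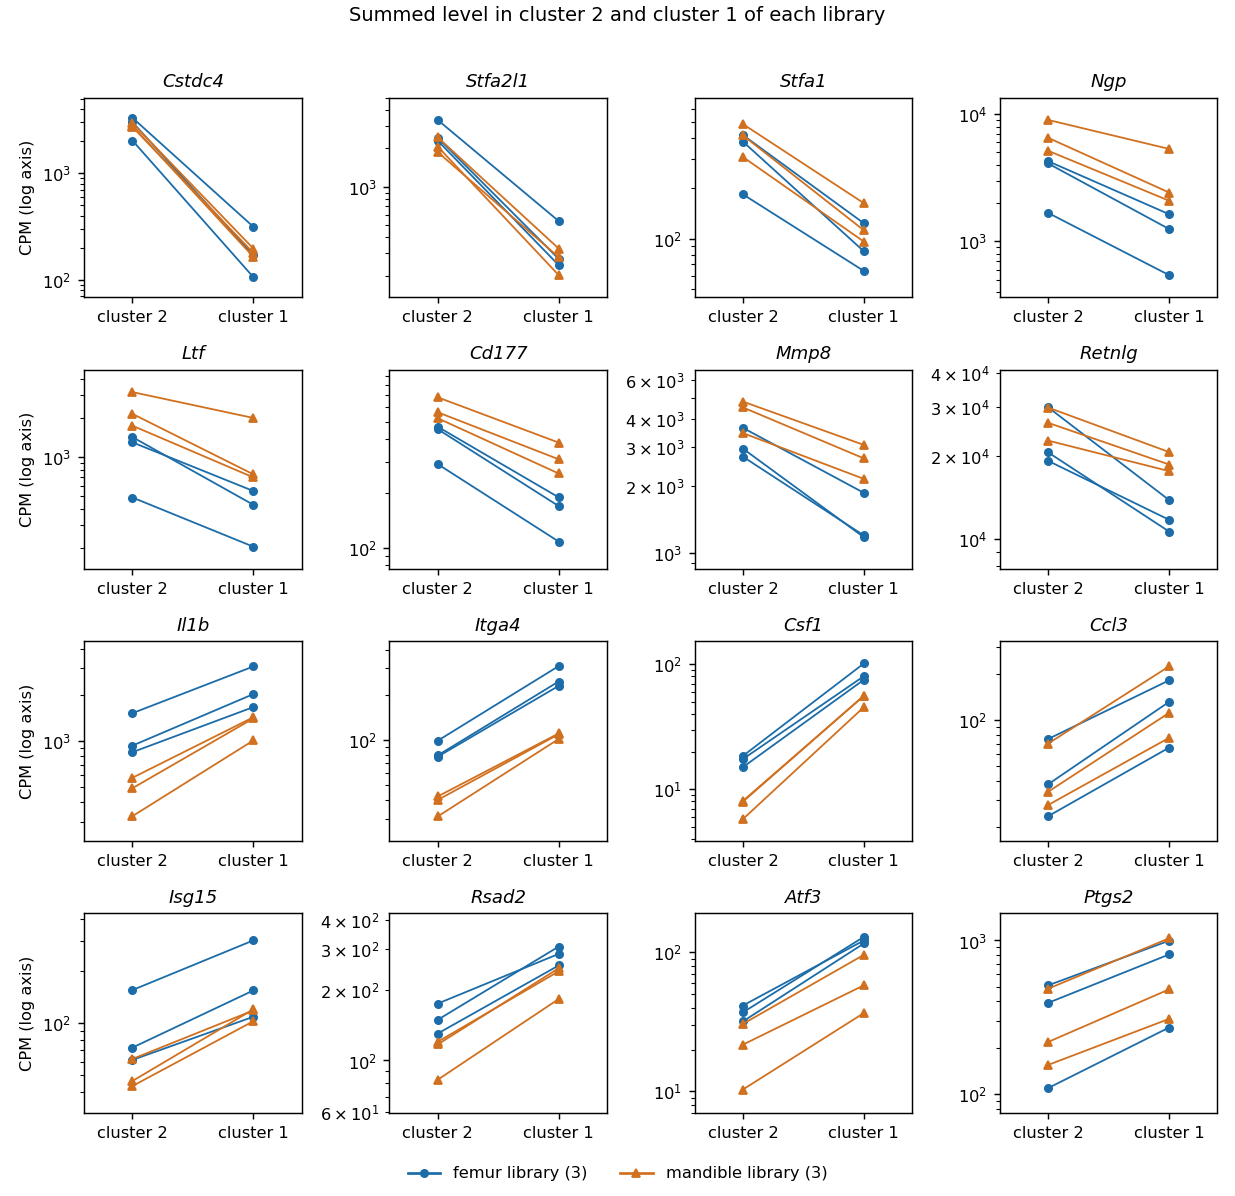
TMM-scaled level (CPM, log axis) of 16 genes in cluster 2 (left of each panel) and cluster 1 (right), with 1 line per library, blue circles for the 3 femur and orange triangles for the 3 mandible libraries. The stefin and granule genes in the upper 2 rows slope down in all 6 libraries, with Cstdc4 between 2022 and 3305 CPM in cluster 2 and between 106 and 314 CPM in cluster 1, and the genes in the lower 2 rows slope up in all 6.

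Genes of secondary and tertiary granules were also lower in cluster 1. Of 12 secondary granule genes, 11 were called higher in cluster 2 and 0 higher in cluster 1, with a median log2 difference of -0.78. Ngp, neutrophilic granule protein, was at 1252, 544, 1637, 2090, 5335 and 2423 CPM in cluster 1 and 4100, 1675, 4273, 5158, 9013 and 6525 CPM in cluster 2. The clusters overlapped across libraries, since mandible replicate 2 was high and femur replicate 2 low in both, but cluster 2 was the higher within all 6 libraries, and the difference was -1.37 ± 0.09. Ltf, the iron-binding lactotransferrin, differed by -1.30 ± 0.09, Camp, the cathelicidin, by -1.21 ± 0.08, Lcn2, which binds bacterial siderophores, by -0.94 ± 0.06, and Cd177, a surface glycoprotein of neutrophils, by -1.15 ± 0.07. Serpinb1a, an inhibitor of neutrophil serine proteases, differed by -1.32 ± 0.10. In the B cell cluster 6, of which 7.69% to 25% of cells per library carried the ImmGen neutrophil label, the mean unscaled level was 4028 CPM of Camp, 4025 CPM of Ngp and 1296 CPM of Ltf. In cluster 1 the means were 1546, 2272 and 788 CPM, and in cluster 2 they were 2930, 4710 and 1574 CPM. The part of RNA from other cells in these differences was not tested.

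Of 10 tertiary granule genes tested, 9 were higher in cluster 2 and 0 in cluster 1, with a median of -0.45. Both granule lists were chosen by hand and hold a few genes of proteins not known from granules. Their counts are therefore of the listed genes and not of granule proteins alone. Mmp8 (ENSMUSG00000005800), the neutrophil collagenase, was at 1860, 1194, 1173, 2661, 3061 and 2150 CPM in cluster 1 and 3656, 2709, 2946, 4521, 4802 and 3463 CPM in cluster 2, against an unscaled mean of 585 CPM in cluster 6. The mandible libraries were the higher of the sites in cluster 1, and the difference was -0.93 ± 0.07. Retnlg, a resistin-like protein of mature neutrophils, was at 15551 ± 4030 CPM in cluster 1 and 24830 ± 4671 CPM in cluster 2, -0.70 ± 0.08. Mmp9, gelatinase B, differed by -0.45 ± 0.04, and Itgb2l, an integrin subunit, by -1.39 ± 0.08. Of 7 primary granule genes tested, 1 was called higher in cluster 2 and 0 in cluster 1.

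S100a8 and S100a9, the subunits of calprotectin, which binds zinc and calcium, were so abundant that together they took 14.1% to 24.5% of all UMIs of cluster 1 and 20.2% to 30.1% of those of cluster 2. S100a8 was at 83585 ± 22553 CPM in cluster 1 and 124576 ± 30109 CPM in cluster 2, a difference of -0.59 ± 0.07, and S100a9 differed by -0.58 ± 0.07. Without TMM factors the median over all genes was 0.21 in place of 0.01, and the calls were 4760 higher in cluster 1 and 891 higher in cluster 2 in place of 2145 and 2185. The counts of the stefin and secondary granule lists were the same under both scalings, while the tertiary granule list then had 2 genes higher in cluster 1 and 7 higher in cluster 2.

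The oxidase that makes superoxide in neutrophils was lower in cluster 1 for 6 of 8 genes, with 0 higher and a median of -0.31. Without TMM factors 2 genes were called higher in cluster 1 and 6 lower. Cybb, its membrane subunit gp91phox, was at 348 ± 169 and 621 ± 203 CPM, -0.92 ± 0.07, and Cyba, the p22phox subunit, differed by -0.29 ± 0.03. Ly6g, the antigen that defines mouse neutrophils, was at 278 ± 116 and 470 ± 135 CPM, and Ly6c2, shared with monocytes, at 375 ± 145 and 692 ± 170 CPM. Adpgk, an ADP-dependent glucokinase, differed by -1.14 ± 0.08 and the uncharacterised transcript 1700047M11Rik by -1.13 ± 0.08.

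Interleukin-1β and its decoy receptor were higher in cluster 1. Il1b (ENSMUSG00000027398, chr2:129364570-129371139, minus strand) encodes a cytokine made as an inactive precursor that inflammasome caspases cut. Its levels were 3073, 1671, 2030, 1410, 1434 and 1013 CPM in cluster 1 and 1524, 849, 937, 495, 579 and 325 CPM in cluster 2. Femur replicate 1 was the highest and mandible replicate 3 the lowest in both, so the clusters overlapped across libraries, but cluster 1 was higher within all 6, by 1.25 ± 0.07 on the log2 scale. Of 8 genes of the interleukin-1 axis tested, 4 were higher in cluster 1 and 2 in cluster 2, the latter near the share over all genes. Il1r2, the decoy receptor that binds interleukin-1 without signalling, was at 1999 ± 834 and 1342 ± 592 CPM, 0.59 ± 0.04. Il1rap, the shared receptor chain, differed by 0.74 ± 0.04, and Nlrp3, the inflammasome sensor, by 0.41 ± 0.04. The caspase gene Casp1 and the adaptor gene Pycard differed the other way, by -0.26 ± 0.06 and -0.39 ± 0.07. Il1rn, the receptor antagonist, was at 161 ± 22 and 170 ± 22 CPM, and Il18 at 10.4 ± 1.7 and 9.11 ± 2.18 CPM, and neither was called.

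Among 12 cytokines and chemokine ligands, 7 were higher in cluster 1 and 2 in cluster 2, with a median of 0.27. Csf1, the macrophage growth factor, had the largest difference and did not overlap: it was at 75.3, 80.4, 102, 55.9, 56.2 and 45.5 CPM in cluster 1 and at 15.0, 17.5, 18.5, 8.07, 7.97 and 5.78 CPM in cluster 2, 2.49 ± 0.08. The neighbouring chemokine genes Ccl3 and Ccl4 differed by 1.55 ± 0.06 and 1.36 ± 0.07. Ccl6, another chemokine, was at 2104 ± 347 and 2001 ± 358 CPM and was not called. Of 22 cytokine receptor genes, 12 were higher in cluster 1 and 3 in cluster 2. Csf3r, the G-CSF receptor, was at 2472 ± 413 and 1826 ± 397 CPM, 0.45 ± 0.04. Tnfrsf1b, a TNF receptor, differed by 0.65 ± 0.05 and Il13ra1, an interleukin-13 receptor chain, by 0.72 ± 0.06.

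Genes of the NF-kB pathway and of the immediate early response were mostly higher in cluster 1. Of 19 NF-kB pathway genes, 12 were higher and 1 lower, with a median of 0.24. Tnfaip2, a TNF-induced gene, was at 606 ± 103 and 397 ± 55 CPM and did not overlap, and Nfkbid, an atypical inhibitor of NF-kB, differed by 0.68 ± 0.05. Of 25 immediate early genes, 22 were higher in cluster 1 and 0 lower, with a median of 0.36. Junb, an AP-1 subunit, was at 2929 ± 669 and 2282 ± 494 CPM, 0.36 ± 0.04. Ppp1r15a, which restores translation after stress, was at 38.6 ± 9.3 and 9.12 ± 2.34 CPM and did not overlap. Atf3, Nr4a1 and Egr1, stress and growth factor response genes chosen after their values were seen, differed by 1.69 ± 0.06, 1.37 ± 0.11 and 0.77 ± 0.06.

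Over all genes 21.4% were higher in cluster 1 and 21.8% in cluster 2. Of 13 receptors of retention in and exit from the marrow, 7 were higher in cluster 1 and 3 in cluster 2, the latter near that share. Of these receptors 3 were not called, and the median was 0.12. Itga4 (ENSMUSG00000027009, chr2:79255426-79333123, plus strand), the α4 chain of the VCAM-1 receptor, had by far the largest difference among them. It was at 229, 245, 310, 111, 109 and 102 CPM in cluster 1 and at 77.6, 79.1, 99.04, 42.2, 40.01 and 31.1 CPM in cluster 2. Each femur library was above each mandible library within a cluster, the clusters themselves did not overlap, and the difference was 1.57 ± 0.04. Itgb1, the chain that pairs with α4, was at 19.0 ± 7.3 and 10.4 ± 2.3 CPM, 0.89 ± 0.10. Cxcr1 was at 11.2 ± 5.5 and 6.80 ± 4.08 CPM, and Itgal, Ccr1, Selplg and Cd44 differed by 0.26, 0.13, 0.15 and 0.12.

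The receptors best known for keeping neutrophils in the marrow or releasing them did not differ beyond their spread. Cxcr4, the retention receptor for CXCL12, was at 203 ± 39 and 205 ± 47 CPM, -0.01 ± 0.05, and Cxcr2, which drives release, was at 1383 ± 85 and 1326 ± 173 CPM, 0.07 ± 0.04. Without TMM factors 10 of the 13 were called higher in cluster 1 and 3 lower, so the absence of a call in these receptors depends on the scale. Itgam, the CD11b chain by which the cells were sorted, and its partner Itgb2 were lower in cluster 1, with differences of -0.31 ± 0.03 and -0.27 ± 0.04. S1pr4, a sphingosine-1-phosphate receptor, differed by -0.80 ± 0.07. Among 7 chemoattractant receptors, Ccrl2 and Gpr35 were higher in cluster 1 by 1.77 ± 0.10 and 1.74 ± 0.09, and Fpr2, a formyl peptide receptor, was lower, with a difference of -0.46 ± 0.05. C5ar1, the receptor for complement C5a, was at 685 ± 110 and 651 ± 89 CPM and was not called.

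Apart from marker lists of other cell types, interferon-stimulated genes had the highest median of the lists compared. Of 37 tested, 32 were higher in cluster 1 and 2 in cluster 2, with a median of 0.51 and with 11 over 2-fold, where 2.02% of all genes were over 2-fold higher in cluster 1. This did not hold for all of cluster 1. In sub-cluster 0 of the finer split given below, 4 were higher and 14 lower than in cluster 2, median -0.14. Over all genes of that fit 12.4% were higher and 12.2% lower. Rsad2, the antiviral protein viperin, was at 255, 308, 286, 248, 241 and 183 CPM in cluster 1 and 130, 149, 175, 117, 120 and 82.7 CPM in cluster 2. These did not overlap, and the difference was 0.98 ± 0.05. Isg15, a ubiquitin-like modifier, was at 109, 155, 301, 120, 103 and 119 CPM in cluster 1 and 61.4, 72.3, 156, 46.4, 43.3 and 62.2 CPM in cluster 2, with femur replicate 3 the highest in both, 1.06 ± 0.06. Ifit2 and Ifit3, which bind foreign RNA or its partners, differed by 2.53 ± 0.11 and 1.93 ± 0.09, from 2.61 ± 1.03 and 14.6 ± 9.4 CPM in cluster 2. Slfn5, a Schlafen family gene, differed by 1.25 ± 0.05. The abundant gene Ifitm6 went the other way, from 1337 ± 584 CPM in cluster 2 to 687 ± 403 CPM in cluster 1.

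Many interferon-stimulated genes have promoters with a paired GAAA word that STAT and IRF factors can bind. The promoters of 3 named members are shown to make that word visible. Each is the 160 bases before the RefSeq start in GRCm38.p6 on the strand of the gene, and capitals mark GAAA, any 2 bases and GAAA, on either strand, with overlapping matches joined.
Isg15: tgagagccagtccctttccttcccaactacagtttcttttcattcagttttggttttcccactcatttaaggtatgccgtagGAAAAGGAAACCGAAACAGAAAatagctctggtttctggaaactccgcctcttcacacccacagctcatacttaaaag
Rsad2: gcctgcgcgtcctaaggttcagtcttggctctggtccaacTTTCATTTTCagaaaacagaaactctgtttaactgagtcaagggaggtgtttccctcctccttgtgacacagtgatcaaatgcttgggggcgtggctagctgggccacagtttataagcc
Ifit3: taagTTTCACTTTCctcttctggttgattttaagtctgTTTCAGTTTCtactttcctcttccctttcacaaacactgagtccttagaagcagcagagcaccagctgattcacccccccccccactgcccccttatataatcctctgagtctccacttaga

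These lie at chr4:156200819-156200978 on the minus strand, chr12:26456453-26456612 on the minus strand and chr19:34583369-34583528 on the plus strand, and held 3, 1 and 2 matches. In the 250 bases before the start, the word was in 13 of 31 genes of the interferon list with a promoter, 41.9%, against 3.46% of all 27025 genes and 3.65% of 7721 genes tested. Among genes over 2-fold higher in cluster 1 it was in 17 of 154 and among those over 2-fold higher in cluster 2 in 3 of 69. Of 4 other motifs searched, the AP-1 word TGANTCA was in 17 of the former and 5 of the latter against 5.52% of genes tested, and in 9 of the 31 interferon promoters. The C/EBP word TTGCNNAA was in 22 and 13 against 9.30% of genes tested, the CRE word TGACGTCA in 4 and 2 against 3.22%, and the NF-kB word, GGG, any 2 bases and TTTCC, in 3 and 1 against 1.87%. A match is a sequence and not a site of binding.

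Of 20 survival and apoptosis genes, 9 were higher in cluster 1 and 4 in cluster 2, where 21.4% and 21.8% of all genes were. Without TMM factors, where 84.2% of all calls were towards cluster 1, the counts were 13 and 0. Pmaip1, the BH3-only gene Noxa, was at 66.0 ± 30.5 and 12.97 ± 7.19 CPM and did not overlap, 2.34 ± 0.06, and the survival gene Mcl1 differed by 0.15 ± 0.04. Of 20 pattern recognition genes, 12 were higher in cluster 1 and 3 in cluster 2, and Clec4n, the C-type lectin Dectin-2, was at 44.8 ± 17.98 and 5.74 ± 2.79 CPM, 2.91 ± 0.09. Ptgs2, cyclooxygenase-2, was at 997, 810, 270, 1033, 480 and 308 CPM in cluster 1 and 510, 392, 109, 484, 217 and 154 CPM in cluster 2. Its libraries ranged widely, with femur replicate 3 the lowest, and cluster 1 was higher in all 6, 1.09 ± 0.04. Of 21 transcription factor genes of neutrophils, 7 were higher in cluster 1 and 4 in cluster 2, and without TMM factors 15 and 3. The counts towards cluster 2 of the survival, pattern recognition and transcription factor lists were near or below the share over all genes. Cebpe, which drives secondary granule genes, was at 41.1 ± 13.7 and 67.7 ± 20.3 CPM, Cebpb, a factor of emergency granulopoiesis, at 1248 ± 258 and 1036 ± 228 CPM, and Spi1, the myeloid factor PU.1, at 720 ± 90 and 729 ± 94 CPM. Gm2a, a lysosomal activator protein, and Fgl2, a fibrinogen-like protein, differed by 1.41 ± 0.05 and 1.26 ± 0.04. These were among the largest differences towards cluster 1 of called genes of at least 100 CPM with the same sign in all libraries. Maml3, a coactivator of Notch signalling, and Prr5l, an mTOR complex partner, differed by 0.97 ± 0.04 and 0.93 ± 0.06.

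Lists of general cell function depended on the scale. Glycolysis and glycogen genes were higher in cluster 2 for 17 of 23 and in cluster 1 for 2, and without TMM factors for 11 and 6. Gapdh was at 609 ± 219 and 851 ± 278 CPM. Of 85 nuclear oxidative phosphorylation genes 45 were higher in cluster 2 and 2 in cluster 1, with a median of -0.13, but without TMM factors 13 and 24, with a median of 0.06. Proteasome genes went from a median of -0.14 to 0.05. Both of these lists lay below the median of all genes under either scaling. Of 81 ribosomal protein genes tested, 23 were higher and 20 lower in cluster 1, and without TMM factors 64 were higher and 1 lower. Of 34 histone genes tested, 5 were higher and 9 lower, and without TMM factors 10 and 4. With TMM factors the counts of both lists were near the 21.4% higher and 21.8% lower over all genes. Without them 84.2% of the calls over all genes were towards cluster 1. The 13 mitochondrially encoded genes were higher in cluster 1 for 10 and lower for 0, with a median of 0.20. They were higher for 11 and lower for 0 in the femur libraries alone and higher for 3 and lower for 1 in the mandible libraries alone, with medians of 0.34 and 0.06. Over all genes of these fits, 16.9% were higher in cluster 1 and 19.6% lower in the femur, and 15% higher and 14.3% lower in the mandible, so that the mandible counts of the mitochondrial genes were near those shares. The median mitochondrial share of a cell was 0.196% to 0.365% in cluster 1 and 0.193% to 0.359% in cluster 2.

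**Figure D2:**
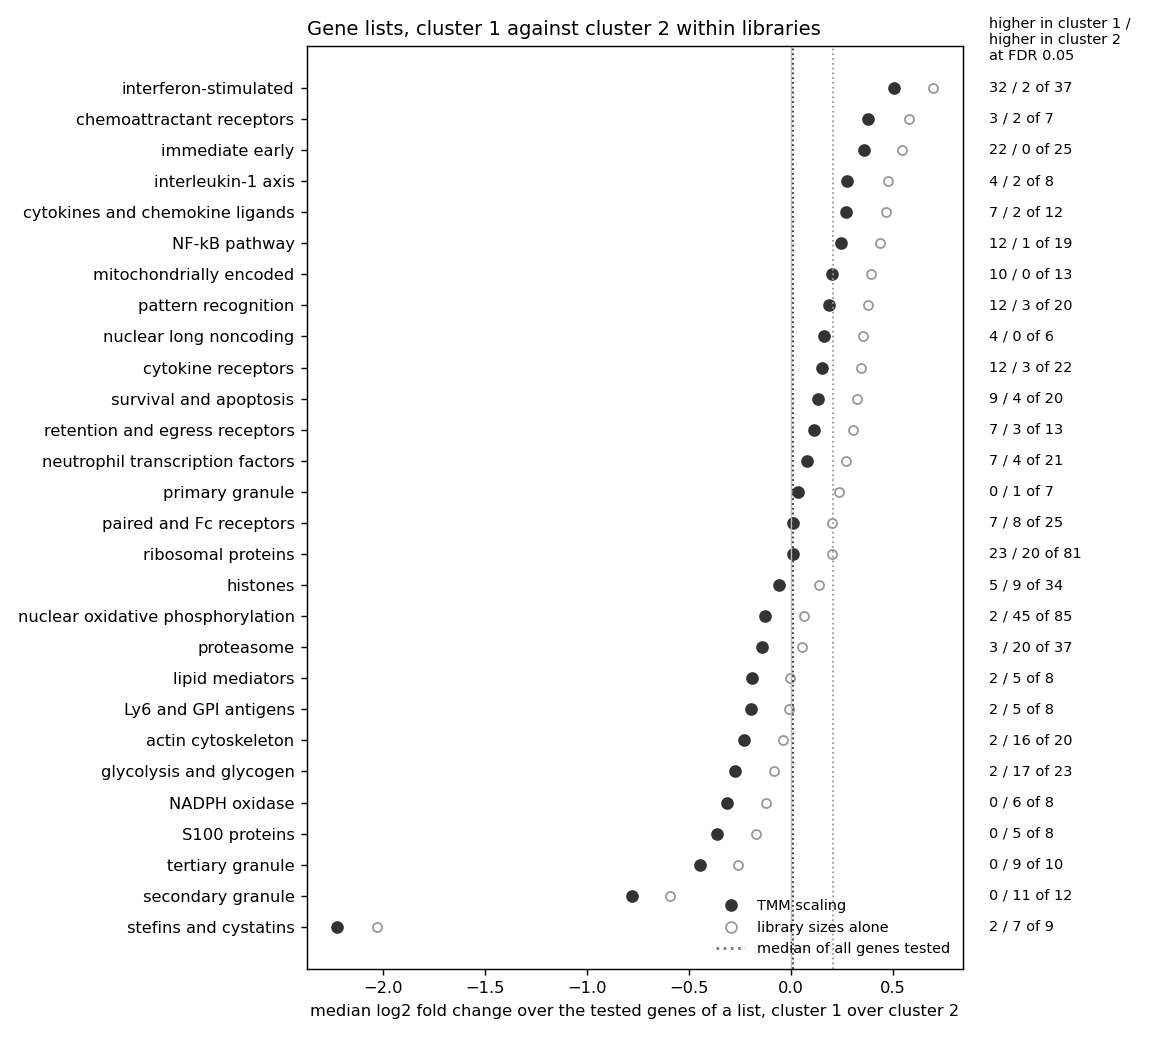
Median log2 fold change, cluster 1 over cluster 2, of each gene list other than the markers of other cell types, with TMM scaling (filled) and with library sizes alone (open), beside the counts called in each direction. Dotted lines mark the medians of all genes, 0.01 and 0.21: stefins lie lowest at -2.22 and interferon-stimulated genes highest at 0.51, and lists near 0 change side with the scale.

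Haemoglobin mRNA was uneven. Its summed level was 332, 59.8, 132, 38.2, 1180 and 94.5 CPM in cluster 1 and 39.1, 50.8, 15.5, 38.7, 46.2 and 34.9 CPM in cluster 2. Mandible replicate 2 was the highest in cluster 1 and femur replicate 2 in cluster 2. The part of red cell RNA in the other differences was not tested. Summed levels of 8 B cell markers were 83.1 to 157 CPM and 67.3 to 129 CPM, and of 7 T and NK cell markers 7.55 to 16.5 CPM and 10.4 to 17.2 CPM, with 2 and 4 of the 7 markers at 0 in every library. Platelet, dendritic, and eosinophil and basophil markers summed to at most 17.4 CPM in either cluster, and tooth and bone markers to at most 59.0 CPM in cluster 1 and 83.3 CPM in cluster 2.

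The shares of cells with Il1b and Stfa2l1 also differed between the clusters, while many cells held both. In cells thinned to 2000 UMIs, which left out 1.34% to 5.83% of cluster 1 and 0.455% to 3.47% of cluster 2, Il1b without Stfa2l1 was found in 43.0% to 68.6% of cluster 1 and in 9.56% to 13.7% of cluster 2. Stfa2l1 without Il1b was found in 1.45% to 4.25% of cluster 1 and in 27.4% to 47.3% of cluster 2. Cells with both made up 11.3% to 25.8% of cluster 1 and 22.3% to 49.1% of cluster 2. Most cells of cluster 1 with Stfa2l1 also held Il1b, and in cluster 2 cells with both outnumbered cells with Stfa2l1 alone in the 3 femur libraries but not in the 3 mandible libraries. The median share of cells with an Il1b UMI over libraries was 71.0% in cluster 1 and 46.5% in cluster 2, and 81.6% and 61.0% as counted. For Stfa2l1 it was 17.4% and 74.3%, and 22.5% and 79.1% as counted. B cells should lack both, but 7.69% to 25% of the cells of cluster 6 per library carried the ImmGen neutrophil label. The thinned shares in cluster 6 were 5.93% for Il1b and 4.17% for Stfa2l1. Before thinning, the median depth was 4835.5 UMIs in cluster 6, 4693.5 in cluster 1 and 5635 in cluster 2. Camp, by contrast, was in 55.7% of cluster 1, 62.0% of cluster 2 and 51.1% of cluster 6, close together across the 3 clusters.

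**Figure D3:**
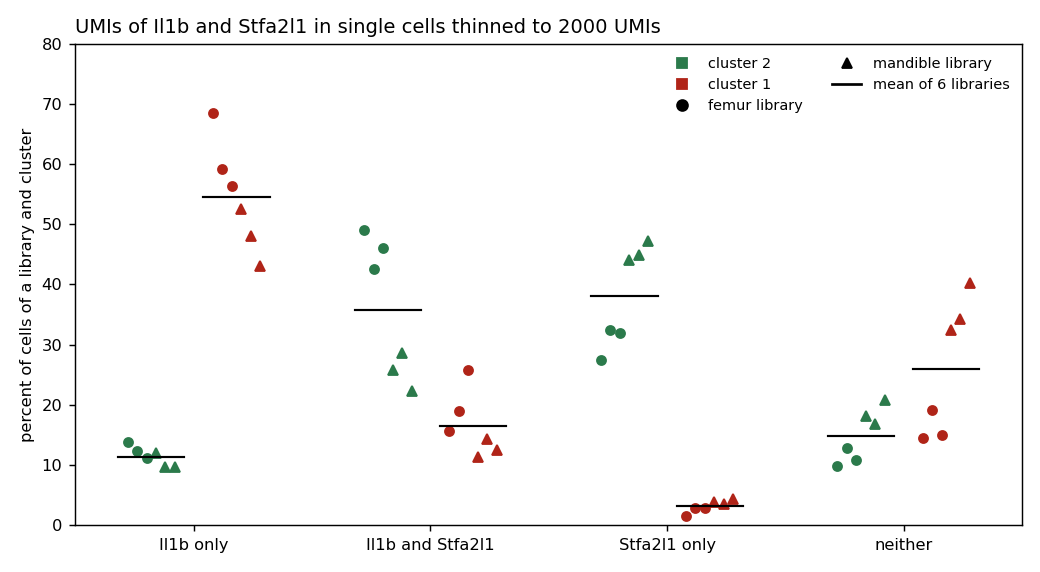
Percent of cells with a UMI of Il1b only, of both genes, of Stfa2l1 only or of neither, per library, in cluster 2 (green) and cluster 1 (red), with circles for femur and triangles for mandible libraries and a line at the mean of 6. Il1b alone runs from 43.0% to 68.6% in cluster 1 and from 9.56% to 13.7% in cluster 2, and mandible libraries hold more cells with neither gene in both clusters.

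The finer clustering of the submitters, at a resolution of 0.3, split cluster 1 into sub-cluster 0 with 8385 and sub-cluster 3 with 7142 of its cells. This division was looked at after the differences above were known, and each sub-cluster was set against cluster 2 within libraries. In each library the median cell of sub-cluster 3 held fewer UMIs than that of sub-cluster 0, 3247.5 to 5351.5 against 4394.5 to 6719.5. Its mitochondrial share was higher in each library. Mean unscaled Hbb-bs was 290 CPM in sub-cluster 3 and 44.4 CPM in sub-cluster 0, with a wide spread over libraries. The part of these in the differences below was not tested. Of the 202 genes over 2-fold higher in cluster 1, 189 were tested with sub-cluster 3 and all 189 were over 2-fold higher there too, against 6.38% of all genes of that fit. Sub-cluster 3 holds part of the same cells and was set against the same cluster 2, so this overlap was largely fixed in advance. With sub-cluster 0, 149 could be tested, of which 33 were called higher than in cluster 2, 5 of them over 2-fold, and 8 were called lower, with a median of 0.25 over the 149, against 0.0744% of all genes over 2-fold higher in that fit. Genes too low in this fit for the expression filter are left out of that median. Over all genes tested, 29.8% were called higher and 28.5% lower in sub-cluster 3, and 12.4% higher and 12.2% lower in sub-cluster 0. The interferon list had 33 genes higher and 2 lower in sub-cluster 3 than in cluster 2, and 4 higher and 14 lower in sub-cluster 0, where the count of higher genes was near the share over all genes. Ifit1, an interferon-stimulated gene chosen after its values were seen, differed from cluster 2 by 2.59 in sub-cluster 3 and by -0.49 in sub-cluster 0 on the log2 scale. Itga4 differed from cluster 2 by 2.42 and 0.09, Csf1 by 3.50 and -0.06, and Il1b by 1.97 and 0.29. Immediate early genes were higher in both, 22 of 25 in sub-cluster 3 and 16 of 23 in sub-cluster 0, with 0 lower in either. The mitochondrially encoded genes were higher for 12 of 13 in sub-cluster 3, median 0.55, and lower for 7 of 13 with 0 higher in sub-cluster 0, median -0.14.

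Of 10 tertiary granule genes, 9 were lower and 0 higher in sub-cluster 3 than in cluster 2, and 5 were lower and 2 higher in sub-cluster 0, against 28.5% and 12.2% of all genes lower and 29.8% and 12.4% higher in these fits. Retnlg was at -1.92 in sub-cluster 3 and -0.11 in sub-cluster 0 against cluster 2, and Mmp8 at -1.87 and -0.49, while Itgb2l was at -1.92 and -1.21. Stefin A genes were lower in both, but the order of the sub-clusters differed between members. Cstdc4 differed from cluster 2 by -5.95 in sub-cluster 0 and by -3.04 in sub-cluster 3, and Stfa2l1 by -4.90 and -2.08. The order was the opposite for Stfa1 at -1.45 and -2.22, Stfa2 at -1.81 and -2.76, Stfa3 at -2.31 and -3.26 and Cstdc5 at -1.86 and -2.86. Secondary granule genes were lower in sub-cluster 0 for 10 of 12 and in sub-cluster 3 for 11 of 12. Sub-cluster 3 made up 40.7%, 43.3% and 53.1% of cluster 1 in the femur and 38.8%, 39.0% and 37.4% in the mandible. Cluster 2 divided into sub-cluster 5 with 6586 and sub-cluster 10 with 2888 cells, and the unscaled mean level of Cstdc4 was 1879 CPM in the former and 4418 CPM in the latter, that of Il1b 636 and 959 CPM.

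Set beside the other neutrophil clusters, the levels of the most abundant stefins did not change in one direction. With the 5 clusters ordered by falling Camp, as 4, 0, 3, 2 and 1, the mean unscaled level of Stfa2l1 was 42.8, 93.3, 57.3, 2244 and 331 CPM and that of Cstdc4 49.7, 86.5, 28.8, 2617 and 200 CPM. Both stefins were highest in cluster 2 and next highest in cluster 1, and the lowest library of cluster 2 lay above the highest library of every other of these clusters. Within cluster 1, Stfa2l1 was at 78.1 CPM in sub-cluster 0 and 688 CPM in sub-cluster 3, and Cstdc4 at 42.6 and 417 CPM. Sub-cluster 0 thus lay below cluster 0 for both. Levels in clusters 4, 0 and 3 were near or below those in monocyte cluster 5 and B cell cluster 6. These were 96.0 and 104 CPM for Stfa2l1 and 98.5 and 80.7 CPM for Cstdc4. Stfa1, at 45.3, 34.6, 149, 341 and 113 CPM, was also highest in cluster 2, but next highest in cluster 3. Csf3r, in the same order, was at 190, 410, 768, 1724 and 2659 CPM and Il1b at 55.0, 126, 63.5, 739 and 1902 CPM. Retnlg was highest in cluster 3, at 27124 CPM, followed by cluster 2 at 23043 CPM and cluster 1 at 16355 CPM. The order is by 1 gene and is no measure of time.

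**Figure D4:**
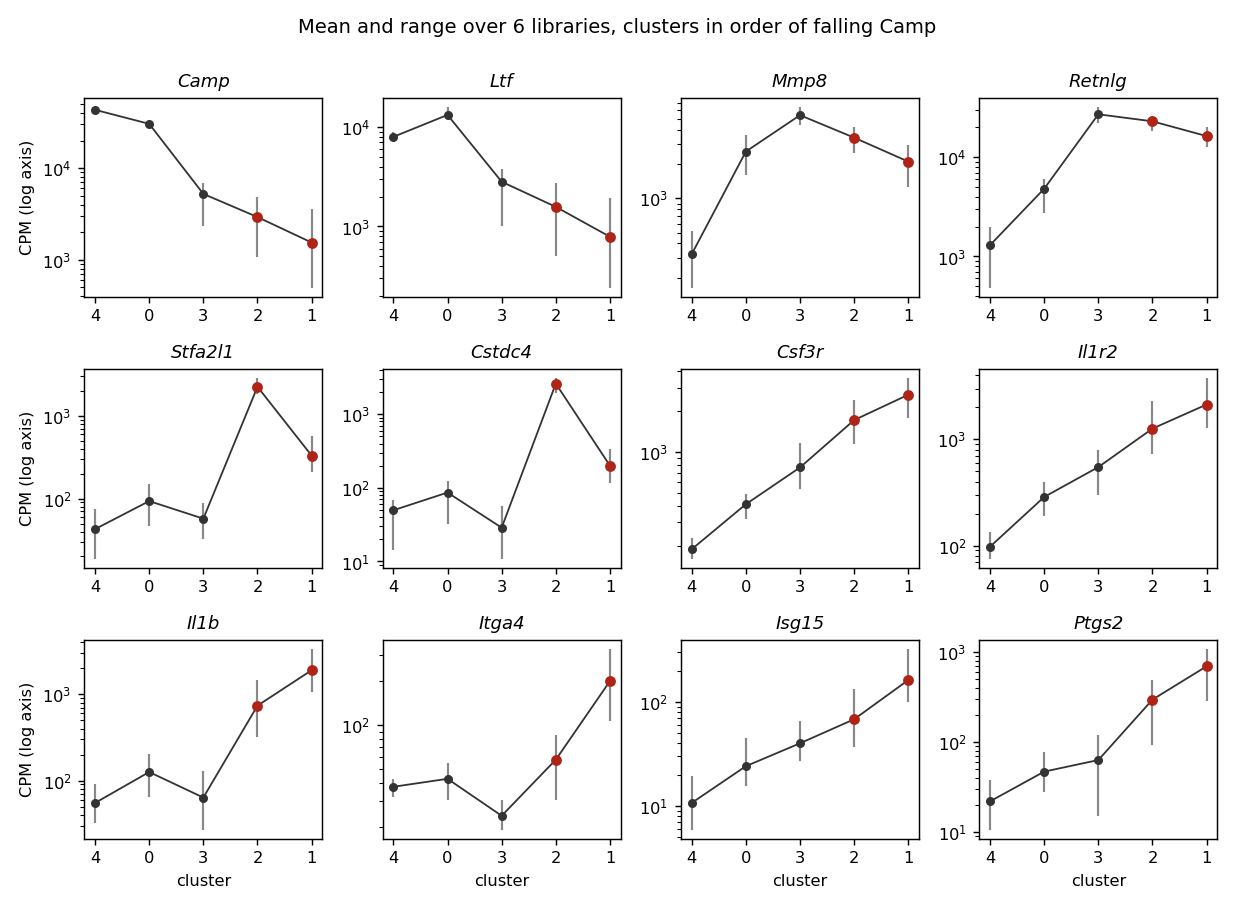
Unscaled level (CPM, log axis) of 12 genes in neutrophil clusters 4, 0, 3, 2 and 1, ordered by falling Camp; points are means of 6 libraries, vertical lines run from the lowest to the highest library, and clusters 2 and 1 are red. Stfa2l1 peaks in cluster 2 at 2244 CPM, while Csf3r reaches its highest mean, 2659 CPM, in cluster 1.

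Whether the difference between the clusters depended on the skeletal site was tested with the interaction of site and cluster over 3 femur and 3 mandible libraries, in edgeR's quasi-likelihood test with libraries as blocks and Benjamini-Hochberg adjustment. Site was called for 211 of 10001 genes, 2.11%. In 196 of these (1.96%) the difference was higher in the mandible and in 15 (0.15%) lower. Without TMM factors 37 genes were called, 27 of them higher and 10 lower in the mandible. Of the 196, 147 were lower in cluster 1 at both sites by a smaller amount in the mandible, 22 were higher in cluster 1 at both sites, and 27 were lower in the femur and higher in the mandible. A single gene could not pass an exact permutation test, whose smallest two-sided p with 3 against 3 libraries is 0.1. Femur libraries include the only female one, and sex cannot be told apart from that library. The clusters were drawn after integration of these libraries, and the part of that step in the site effects was not tested.

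Granule genes were among those called. Site was called for 4 of 12 secondary granule genes, 5 of 10 tertiary granule genes and 4 of 8 genes of S100 proteins, each with the higher value in the mandible. Cd177 differed between the clusters by -1.39 in the femur and -0.91 in the mandible, a site effect of 0.47 ± 0.06 (adjusted p = 0.000766, edgeR). Mmp8 differed by -1.17 and -0.70 (site effect 0.46 ± 0.07, adjusted p = 0.00243, edgeR) and Retnlg by -0.93 and -0.47 (0.46 ± 0.08, adjusted p = 0.00561, edgeR). Of the stefins, Cstdc5, Stfa3 and Stfa2 had a smaller deficit in the mandible, with site effects of 0.83 ± 0.13, 0.79 ± 0.13 and 0.82 ± 0.21. For Stfa2 the log2 ratio of the clusters was -2.09, -2.90 and -2.40 in the femur and -2.08, -2.08 and -0.98 in the mandible, so that mandible replicate 3 alone lay clear of the femur. Without that library the site effect of Stfa2 was 0.43 (adjusted p = 0.326, edgeR), and it was also not called without femur replicate 2 or 3 or mandible replicate 2 (0.62, 0.89 and 0.98). Retnlg was not called without mandible replicate 3 (0.41). S100a8 and S100a9, with site effects of 0.30 and 0.29, were called in 1 of the 6 fits that left out a library, that without femur replicate 1 (0.35 and 0.34). Lcn2 was called in 2 of 6, and not without femur replicate 2 or 3 or mandible replicate 2 or 3 (0.28, 0.26, 0.22 and 0.31). The more abundant Cstdc4 and Stfa2l1 had the same deficit at both sites within error, with site effects of -0.06 ± 0.14 and 0.01 ± 0.13.

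Il1b differed by 1.02 in the femur and 1.49 in the mandible. Its level was higher in each femur library than in each mandible library within either cluster. The log2 ratio of cluster 1 over cluster 2, by contrast, was larger in the mandible by 0.45 ± 0.07 (adjusted p = 0.00243, edgeR). Csf1 went the same way, with 0.51 ± 0.13, but was not called when any 1 of the 6 libraries was left out (0.44 to 0.58). Itga4 did not differ detectably in its difference, -0.12 ± 0.08. Plac8, a small cysteine-rich protein of myeloid cells, had the opposite site effect: its levels were 64.7, 62.0, 147, 54.2, 102 and 67.3 CPM in cluster 1 and 49.6, 35.8, 104, 66.0, 108 and 73.7 CPM in cluster 2. It was higher in cluster 1 in the 3 femur libraries and lower in the 3 mandible libraries, 0.55 against -0.16, a site effect of -0.72 ± 0.09 (adjusted p = 0.000766, edgeR). Within cluster 1, Plac8 differed from cluster 2 in opposite directions, by -0.94 in sub-cluster 0 and by 0.87 in sub-cluster 3. The part of this split in its site effect was not tested. Ifrd1, an interferon-related developmental regulator, 1700047M11Rik and Ddx60, a helicase of antiviral sensing, were the others of the 5 smallest p-values, with site effects of 0.46 ± 0.06, 0.58 ± 0.08 and 0.35 ± 0.05. Interferon-stimulated genes had 3 of 37 called, all higher in the mandible, and the receptors of retention and exit 0 of 13.

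The count of site calls changed with the cells of cluster 1 and with single libraries. With sub-cluster 3 in place of cluster 1, 294 genes were called, 172 of them among the 211, and with sub-cluster 0 a single gene was called, Ifrd1. The share of sub-cluster 3 in cluster 1 was higher in each femur library than in each mandible library, and its part in the site effect of whole cluster 1 was not tested. Without femur replicate 1 there were 329 calls, without femur replicate 2 there were 115 and without femur replicate 3 there were 35, and without mandible replicates 1, 2 and 3 there were 81, 55 and 36. A limma fit to the per-library differences called 0 genes, with 990 at an unadjusted p under 0.05 against 1405 in edgeR, and DESeq2 called 161, of which 137 were among the 211.

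**Figure D5:**
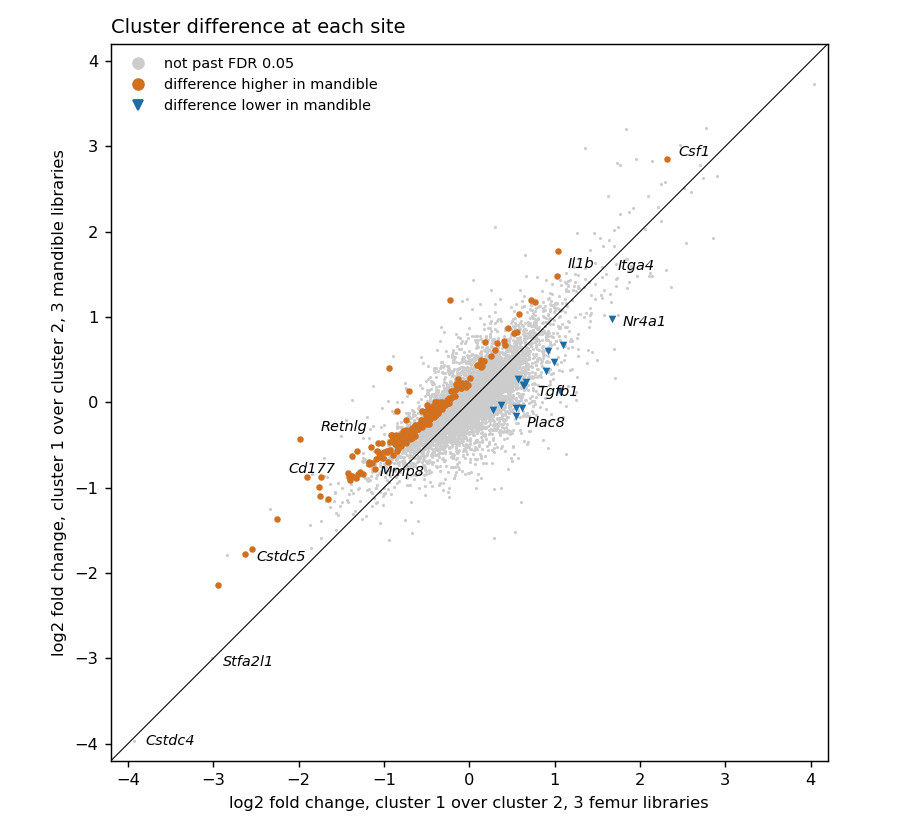
Log2 fold change, cluster 1 over cluster 2, in the 3 mandible libraries (vertical) against the 3 femur libraries (horizontal), with 1 point per gene fitted at both sites, 9186 in all, of which 1 lies outside the axes. Genes called for site are orange (higher in mandible) or blue triangles (lower); most orange points lie above the diagonal where both values are below 0, and Plac8 and Nr4a1 are among the blue.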

How the data were processed

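CD11b+ marrow cells of 3 femur and 3 mandible samples were profiled as droplet libraries. Per the methods, the authors made UMI counts per gene and cell with Cell Ranger (version 7.0.1 per the submitters' processing notes, 7.1.0 per the file headers of the matrices) on mm10. They kept cells with 600 to 6000 genes and at most 20% mitochondrial reads in Seurat on R 4.1.0. SCTransform normalized the counts, with the mitochondrial share and the cell cycle score difference regressed out. The authors then integrated on 3000 features and clustered on 20 principal components. The part of this regression in the mitochondrial shares and proliferation levels of the clusters was not tested. Whether counting used strand, and any removal of doublets, are not given in the sources used here, and no doublets were removed in this re-analysis. Seurat's cell cycle scores and the SCTransform totals, another score per cell, were deposited by the authors and not used here beyond the phase call. The deposited counts, not normalized, and the deposited metadata table with clusters and labels were used. A deposited marker table holds the authors' own comparisons and was not used.

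Raw counts were summed per library and cluster. Genes passing edgeR's expression filter (10001) were fitted with edgeR 4.0.16 (TMM, quasi-likelihood, library as block, R 4.3.3), with DESeq2 1.42.0 and limma 3.58.1 as alternatives, and called at an FDR of 0.05. On simulated counts for these 10001 genes, the fit of cluster 1 against cluster 2 recovered 96% of 2-fold and 100% of 4-fold changes, and the site interaction 61% and 91%. The simulation changed 200 genes and held the clusters equal in all others, unlike the data. Called site effects had medians of 0.33 (higher in mandible) and -0.45 (lower) on the log2 scale, smaller than the changes simulated. These shares therefore do not gauge the site calls. Genes were named by rule: the 12 largest called differences in each direction with the same sign in all libraries and at least 100 CPM, the most abundant and most changed members of each list, all stefins and interleukin-1 and retention members, and the 5 smallest site p-values. Genes outside it were chosen after their values were seen: Mpo, Atf3, Nr4a1, Egr1, Ifit1, Herc6 and Tgfb1. Members and lists were chosen with earlier results of these data known. Promoters came from RefSeq GRCm38.p6, and coordinates from GENCODE vM21. The deposited percent of mitochondrial UMIs, made by the authors in Seurat, is a description. Shares of cells cover counting error only. Results of some genes are not reported here.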

Additional observations from a re-analysis of the deposited data

Results flagged for a closer look

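A library stood apart from the other 5 in 3 of 110 values tested, where chance gives about 1 in 20. The log2 ratio of Itgb1, cluster 1 over cluster 2, was 1.37 in femur replicate 3 against 0.51 to 0.79 in the others. That of Itgam was -0.26 in mandible replicate 2 against -0.33 to -0.32, and that of Cd44 was 0.02 in femur replicate 2 against 0.12 to 0.16.

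The cluster difference changed with the site, by edgeR's interaction test at an FDR of 0.05, in 30 of the 106 genes followed through the alternatives. The values are the mandible minus the femur difference on the log2 scale. Among stefins it was 0.82 for Stfa2, 0.79 for Stfa3 and 0.83 for Cstdc5. Among granule and S100 genes it was 0.31 for Lcn2, 0.47 for Cd177, 0.38 for Wfdc21, 0.46 for Mmp8, 0.46 for Retnlg, 0.51 for Itgb2l, 0.30 for S100a8 and 0.29 for S100a9. It was 0.42 for the oxidase gene Cybb, 0.45 for Ly6g, 0.44 for Ly6c2, 0.30 for Fpr2 and 0.45 for Ifitm6. Cytokine and pathway genes had 0.45 for Il1b, 0.51 for Csf1, 0.40 for Ccl6 and 0.26 for Nfkbid. Others were 0.39 for Prr5l, 0.52 for Adpgk, 0.58 for 1700047M11Rik, 0.46 for Ifrd1 and 0.35 for Ddx60. The site effect was below 0 for Plac8 at -0.72, Nr4a1 at -0.70, Nod1 at -0.54, Tgfb1 at -0.44 and Egr1 at -0.32. Leaving out 1 library at a time, 14 of the 30 genes kept their call in all 6 fits. Csf1 lost it in all 6, Egr1, Nfkbid, Nod1, S100a8 and S100a9 kept it in 1, Fpr2, Lcn2 and Stfa2 in 2, Ly6g, Prr5l and Tgfb1 in 3, and Cybb, Itgb2l, Nr4a1 and Retnlg in 5.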

How the results depend on the processing

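The cluster difference kept its count of called genes within 1.5 times of 4330 under DESeq2, no filter, no TMM, femur libraries alone, neutrophil-labelled or G1 cells alone, without shared barcodes, without the cells of most UMIs, with thinned cells, with sub-cluster 3 and without any 1 library (3682 to 4252). It was 366 without the library as replicate block, 2691 in mandible libraries alone and 2307 with sub-cluster 0 in place of cluster 1. Neutrophil-labelled cells were those of the ImmGen set, 15819 of 15824 in cluster 1 and all 9629 in cluster 2. Cells in G1 made up at least 96.3% of either cluster per library, and 330 cells carried a shared barcode. These settings left out few cells, so they could hardly change the count and are no check on cell identity. Leaving out the 3982 and 705 cells that the MouseRNA set called monocytes was not tested. Of the log2 fold changes named, 1781 values under alternatives stayed within the spread and 220 moved. A change of sign was counted only for genes called in the main fit, and other genes were sorted by size of change alone. Among the called genes 12 values changed sign, all with sub-cluster 0: Cstb -0.0044, Csf1 -0.061, Itgb1 -0.016, Ifit1 -0.49, Ifit2 -0.79, Ifit3 -0.60, Isg15 -0.22, Rsad2 -0.25, Slfn5 -0.16, Herc6 -0.23, Clec4n -0.14 and Nod1 -0.33. The cause was not tested.

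The site count of 211 was 0 with limma (smallest FDR 0.322, 990 genes at an unadjusted p under 0.05), 37 without TMM, 121 with thinned cells, 1 with sub-cluster 0 and 35 to 329 without 1 library. Site effects of 4 genes changed sign with sub-cluster 0: Lcn2 -0.0017, Egr1 0.080, Nr4a1 0.10 and Nod1 0.15. Thinned shares of cells were 71.0% and 46.5% for Il1b in clusters 1 and 2 and 74.3% for Stfa2l1 in cluster 2. Femur and mandible samples share title numbers and, in 4 libraries, library numbers. Whether either number pairs the samples is not known. Correlations of same-numbered deviations lay between -0.02 and 0.02. They cannot decide this, since they are deviations of cluster differences from a mean of 3 libraries. With a replicate block on the title number 69 genes were called, and on the library number, in 4 libraries, 314. Depth limits genes of a few CPM, such as Cstdc6.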
